A study of Mus musculus with 11 samples.

Results

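Vapb, Rmdn3, Vdac1, Vdac2, Vdac3, Itpr1, Pacs2 and Mcu encode proteins of the contacts between the endoplasmic reticulum (ER) and mitochondria and of the route by which calcium passes there into mitochondria. They were chosen by name from the deposited expression table, 8 of its 20888 gene symbols, and each was found there once and passed the filter on low values. RNA sequencing measured messenger RNA in lumbar cord taken at the age of 10 months from mice of the strain C57BL/6. The labels give 5 mice with MFN2-R94Q and MFN1 together (MFN2-R94Q:MFN1), 3 mice with MFN2-R94Q, and 3 nontransgenic mice (nTg). R94Q is a substitution in mitofusin 2 of patients with the axonal neuropathy Charcot-Marie-Tooth disease type 2A, and MFN1 is the other mitofusin. Both transgenic groups carry MFN2-R94Q, and no group with MFN1 alone is analysed here. Neither the promoter nor the species of a transgene is given in the sources used here. Since the design text gives n as mice, 1 library stands for 1 animal, and the p-values rest on the spread between these animals.

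Sheets of ER lie close to the outer mitochondrial membrane and are held there by pairs of membrane proteins. VAPB, an ER membrane protein mutated in a familial motor neuron disease, binds RMDN3, also known as PTPIP51, in the outer mitochondrial membrane, and mitofusin 2 itself has been proposed to act at these contacts. Calcium leaves the ER through inositol trisphosphate receptors such as ITPR1, crosses the outer membrane through the VDAC channels, and enters the matrix through the uniporter MCU. PACS2 is a cytosolic sorting protein that is needed in cultured cells to keep the ER apposed to mitochondria.

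Values are RPKM, reads divided by gene length and by library size. Depth, recovered from the values, was 30.7 to 72.0 M reads in a library, with overlap of the groups. In a principal component analysis of all tested genes, the library MFN2-R94Q replicate 2 stood apart with a score of 27.0 on the first component (39.6% of the variance). The other libraries of its group lay at 6.2 and 8.05 and the remaining 8 lay between -8.23 and -2.48. Results that turn on that library are given with and without it. No sensory ganglion marker was above 0.23 RPKM and no skeletal muscle marker above 1.23 RPKM in any library. For other tissues that a dissection could include, markers reached 46.45 RPKM (Schwann cells) and 5.88 RPKM (fibroblasts and meninges). Among the 4 markers of fibroblasts and meninges, 1 was higher in MFN2-R94Q:MFN1 than in MFN2-R94Q, and 1 was higher than in nTg. The shares of all tested genes that were higher in these comparisons were 9.55% and 2.09%. Mfn1 averaged 25.0, 26.3 and 24.9 RPKM in MFN2-R94Q:MFN1, MFN2-R94Q and nTg. Mfn2 averaged 45.2, 46.3 and 45.9 RPKM in the same order, and neither passed the test in a comparison, except that Mfn1 was higher in MFN2-R94Q than in nTg with quantile normalization (log2 0.11, limma adjusted p = 0.048).

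The promoters of both genes that passed the test in a comparison, Pacs2 and Rmdn3, are shown together with that of Vapb, the gene of the partner of RMDN3. They run from 250 bases before to 50 bases after the annotated start and were taken from RefSeq on GRCm38.p6, whose table matched 5 of the 8 genes. Each is printed 5′ to 3′ on the strand of its gene, at chr12:113014258-113014557 (plus strand) for Pacs2, chr2:119156985-119157284 (minus strand) for Rmdn3 and chr2:173737321-173737620 (plus strand) for Vapb. In Pacs2, capitals mark the letters GGGCGG, the core of the box bound by SP1, and the CCAAT box, both read on either strand. In Rmdn3 they mark the same SP1 box and CGTCA, the short form of the cyclic AMP response element. In Vapb, where 3 SP1 boxes are left in lower case, they mark the core bound by NRF1 (GCGCA, any base, GCGC), a regulator of nuclear genes for mitochondrial proteins.
Pacs2: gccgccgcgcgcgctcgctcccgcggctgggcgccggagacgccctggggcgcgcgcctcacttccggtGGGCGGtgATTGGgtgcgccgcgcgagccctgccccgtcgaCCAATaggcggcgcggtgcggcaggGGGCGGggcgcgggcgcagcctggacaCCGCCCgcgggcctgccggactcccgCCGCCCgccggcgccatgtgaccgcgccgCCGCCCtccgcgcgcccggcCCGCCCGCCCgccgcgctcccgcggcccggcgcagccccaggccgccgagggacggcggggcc
Rmdn3: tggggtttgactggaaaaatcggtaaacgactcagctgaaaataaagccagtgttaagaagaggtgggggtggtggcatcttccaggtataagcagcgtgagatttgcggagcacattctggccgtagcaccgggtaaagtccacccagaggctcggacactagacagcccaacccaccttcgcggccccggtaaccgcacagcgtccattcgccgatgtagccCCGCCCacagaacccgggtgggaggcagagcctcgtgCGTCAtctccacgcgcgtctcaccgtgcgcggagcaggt
Vapb: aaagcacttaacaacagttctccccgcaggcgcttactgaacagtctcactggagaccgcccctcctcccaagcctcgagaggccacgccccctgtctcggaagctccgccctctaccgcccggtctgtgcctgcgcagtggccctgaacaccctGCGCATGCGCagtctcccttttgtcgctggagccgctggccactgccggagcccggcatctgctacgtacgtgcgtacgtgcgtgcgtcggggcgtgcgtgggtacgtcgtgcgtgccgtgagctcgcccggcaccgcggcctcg

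The Pacs2 promoter held 7 matches to GGGCGG, some of which overlapped one another, and 2 CCAAT boxes. At least 1 match to GGGCGG was found in 35.7% of the 32851 promoters in the table, and at least 1 CCAAT box in 37.4%. The base composition of the Pacs2 promoter was 85.7% G and C with 60 CpG pairs, against a median of 52.7% G and C over all promoters, and 99.9% of promoters had less. The NRF1 core was found in Vapb and in 4.6% of all promoters, and the short CGTCA in Rmdn3 and in 20.8%. The full cyclic AMP element TGACGTCA, which contains CGTCA, was in none of the printed promoters and in 1.79% of all. The E-box CACGTG (7.15% of all promoters) and the glucocorticoid (0.00913%) and sterol (1.24%) response elements were also searched and had no match in the 3 windows. These matches describe the letters of the windows and no binding was measured.

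The 8 genes covered a wide range of levels. On the RPKM scale, which is per length, the order over all 11 libraries was Vdac1, then Vdac3 and Vdac2, then Pacs2, Vapb, Rmdn3, Itpr1 and Mcu. Vdac1 lay above 98.9% of the symbols in the table and Mcu above 69.9%. The ranges of neighbours in this order did not overlap over the 11 libraries, except those of Vdac3 and Vdac2, whose ranges overlapped in MFN2-R94Q:MFN1 but not in MFN2-R94Q or nTg. Most were steady between animals: the highest of the 11 libraries was 1.05 times the lowest for Vdac1 and Mcu, and 1.10 to 1.13 times for Vdac2, Vapb, Itpr1 and Vdac3. The same ratio was 1.24 for Rmdn3 and 1.48 for Pacs2.

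**Figure D1:**
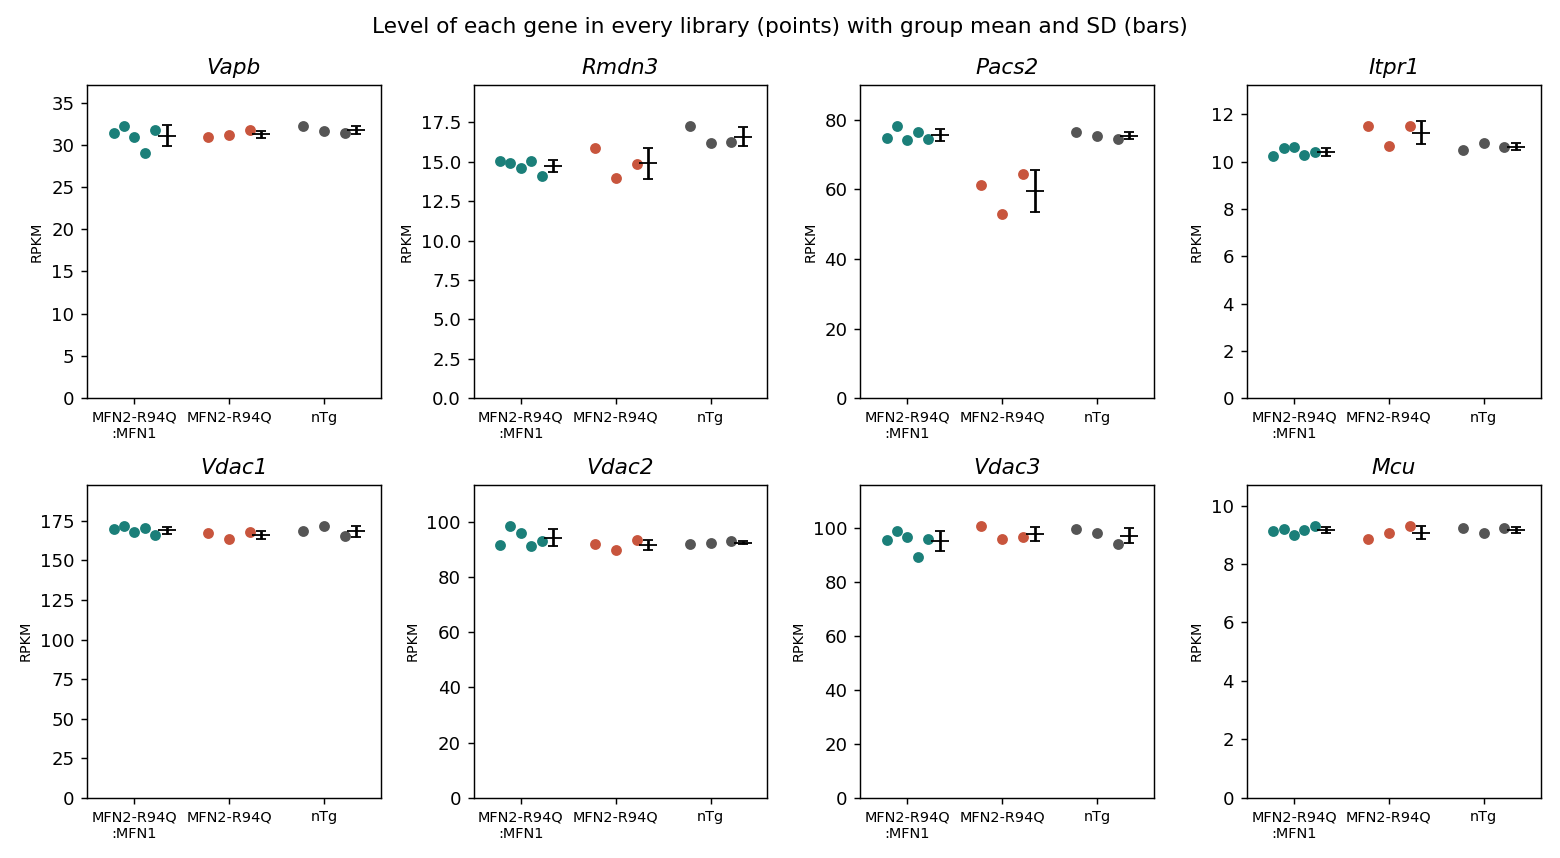
Level of each of the 8 genes in RPKM (vertical axes) in every library (points), with group means and SDs, in MFN2-R94Q:MFN1 (n = 5), MFN2-R94Q (n = 3) and nTg (n = 3). The 3 MFN2-R94Q points of Pacs2 lie at 52.9 to 64.6 RPKM, below all points of the other groups, and the nTg points of Rmdn3 lie above the rest.

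Of the genes of contact proteins, Pacs2 was lower in MFN2-R94Q than in either other group. Pacs2 (chromosome 12, 113014508 to 113074401, plus strand, GRCm38, GENCODE M21) had 74.9, 78.3, 74.2, 76.5 and 74.5 RPKM in MFN2-R94Q:MFN1. It had 61.2, 52.9 and 64.6 RPKM in MFN2-R94Q and 76.5, 75.4 and 74.7 RPKM in nTg. Every MFN2-R94Q library lay below every library of both other groups, and MFN2-R94Q replicate 2 was the lowest, while the other groups overlapped throughout. The group means were 75.7 ± 1.7, 59.6 ± 6.0 and 75.5 ± 0.91 RPKM (SD, n = 5, 3 and 3).

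Pacs2 fell by 21.2% in MFN2-R94Q relative to nTg, a log2 change of -0.34 (SE 0.056, 95% interval -0.47 to -0.22, adjusted p = 0.0033 by limma with Benjamini-Hochberg adjustment over 14347 tested genes). It was 27.2% higher in MFN2-R94Q:MFN1 than in MFN2-R94Q, a log2 change of 0.35 (SE 0.050, 95% interval 0.24 to 0.46, limma adjusted p = 0.0019). Between MFN2-R94Q:MFN1 and nTg the fold was 1.002 with a 95% interval of 0.93 to 1.08 (limma adjusted p = 0.98). The exact two-sided permutation test over libraries gave p = 0.10 for MFN2-R94Q against nTg, the smallest that 3 against 3 allows, and p = 0.036 for MFN2-R94Q:MFN1 against MFN2-R94Q, the smallest for 5 against 3. The comparisons with MFN2-R94Q share its 3 libraries, so the lower level against nTg and the higher level with MFN1 are not independent results. Without MFN2-R94Q replicate 2 the log2 changes were -0.26 (limma adjusted p = 0.0012) and 0.27 (limma adjusted p = 0.00082).

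Summed levels of markers of some cell types also differed between MFN2-R94Q and the other groups, and their part in its result, or in those of the gene lists given further on, was not tested. The summed level of 6 oligodendrocyte markers was 3945 to 4268 RPKM in MFN2-R94Q:MFN1, 3379 to 3686 RPKM in MFN2-R94Q and 3812 to 4135 RPKM in nTg. The summed level of 6 motor neuron markers was 85.7 to 92.5 RPKM, 77.1 to 83.9 RPKM and 90.2 to 93.1 RPKM in the same groups. Against nTg, 3 of the 6 oligodendrocyte markers and 4 of the 6 motor neuron markers fell in MFN2-R94Q, and 4 and 1 of them were higher in MFN2-R94Q:MFN1 than in MFN2-R94Q. Over all tested genes, 10.4% fell and 9.55% were higher in those comparisons, and 2.09% were higher in MFN2-R94Q:MFN1 than in nTg. Of 4 endothelial markers, with sums of 30.03 to 39.2 RPKM, 22.2 to 30.4 RPKM and 32.1 to 40.2 RPKM, 3 fell and 2 were higher in those comparisons. The sum of 3 ependymal markers was 13.2 to 14.8 RPKM in MFN2-R94Q:MFN1, 11.4 to 12.1 RPKM in MFN2-R94Q and 13.1 to 14.7 RPKM in nTg, with 1 lower and 1 higher in those comparisons. The sum of 3 Schwann cell markers was 39.3 to 57.4 RPKM, 24.5 to 33.3 RPKM and 35.0 to 39.4 RPKM in the same groups, and the 1 of them that was tested fell in MFN2-R94Q and was higher in MFN2-R94Q:MFN1. Microglia markers were higher with MFN1: 6 of 6 passed in MFN2-R94Q:MFN1 against MFN2-R94Q and 4 in MFN2-R94Q:MFN1 against nTg, with sums of 116 to 135 RPKM, 82.7 to 92.4 RPKM and 84.6 to 91.4 RPKM, while 1 fell in MFN2-R94Q against nTg. Among 6 general neuron markers, 1 rose and 1 fell in MFN2-R94Q against nTg, and 1 was lower in MFN2-R94Q:MFN1 than in MFN2-R94Q. Of 4 inhibitory neuron markers 1 fell and 1 was lower in those comparisons, and of 2 excitatory neuron markers 0 passed. One list of 2 oligodendrocyte precursor markers had 1 that rose in MFN2-R94Q. Of all tested genes, 7.5% rose in MFN2-R94Q against nTg and 3.33% were lower in MFN2-R94Q:MFN1 than in MFN2-R94Q. The sums of these general, inhibitory, excitatory and precursor lists overlapped between all groups. None of the markers in these lists was at 0 in every library. In whole cord, fewer cells of a type and less RNA per cell cannot be told apart, here or in any result that follows.

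Rmdn3 was lower in both transgenic groups than in nTg, close to the threshold of the test. Rmdn3 (chromosome 2, 119137001 to 119157034, minus strand, GRCm38) had 15.1, 14.9, 14.6, 15.0 and 14.1 RPKM in MFN2-R94Q:MFN1. It had 15.9, 14.0 and 14.9 RPKM in MFN2-R94Q and 17.3, 16.2 and 16.3 RPKM in nTg. All nTg libraries lay above all transgenic libraries, the narrowest gap being between nTg replicate 2 and MFN2-R94Q replicate 1, and the transgenic groups overlapped. The means were 14.7 ± 0.40, 14.9 ± 0.97 and 16.6 ± 0.61 RPKM (SD, n = 5, 3 and 3).

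Rmdn3 fell by 9.92% in MFN2-R94Q relative to nTg, a log2 change of -0.15 (SE 0.049, 95% interval -0.26 to -0.05, limma adjusted p = 0.049), just inside the threshold of 0.05. That call was lost when any library other than MFN2-R94Q replicate 1 was left out, and over the 11 omissions the change ranged from -0.20 to -0.11 with adjusted p of 0.014 to 0.16. Without MFN2-R94Q replicate 2 it was -0.11 (limma adjusted p = 0.15). In MFN2-R94Q:MFN1 relative to nTg the log2 difference was -0.16 (SE 0.044, 95% interval -0.26 to -0.07), 10.8% lower, with an adjusted p of 0.076 by limma and an exact permutation p of 0.036, the smallest possible. Without MFN2-R94Q replicate 1 or 2, which are not in that contrast but share its estimate of spread, its adjusted p was 0.039 or 0.024. MFN2-R94Q:MFN1 and MFN2-R94Q differed by a fold of 0.990 (95% interval 0.928 to 1.06, limma adjusted p = 0.86). The summed level of 6 astrocyte markers, the highest of which reached 497 RPKM in a library, was 860 to 923 RPKM in MFN2-R94Q:MFN1, 762 to 782 RPKM in MFN2-R94Q and 666 to 684 RPKM in nTg, and their part in its result was not tested. Against nTg, 1 of the 6 rose and 1 fell in MFN2-R94Q, and 1 was higher in MFN2-R94Q:MFN1, where 3 of the 6 were higher than in MFN2-R94Q. Over all tested genes, 7.5% rose and 10.4% fell in MFN2-R94Q against nTg. In MFN2-R94Q:MFN1, 2.09% were higher than in nTg and 9.55% were higher than in MFN2-R94Q.

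Vapb, the ER partner of RMDN3, did not pass the test in any comparison. Vapb (chromosome 2, 173737511 to 173784336, plus strand) had 31.4, 32.2, 30.9, 29.0 and 31.8 RPKM in MFN2-R94Q:MFN1. It had 30.9, 31.2 and 31.7 RPKM in MFN2-R94Q and 32.2, 31.6 and 31.4 RPKM in nTg. The 3 groups overlapped, with 1 lower library, MFN2-R94Q:MFN1 replicate 4. In MFN2-R94Q against nTg the fold was 0.984 with a 95% interval of 0.928 to 1.04 (limma adjusted p = 0.72). Vapb supplied 40.2 ± 1.4%, 41.0 ± 1.0% and 40.3 ± 0.43% of the summed RPKM of Vapa and Vapb in MFN2-R94Q:MFN1, MFN2-R94Q and nTg (SD, n = 5, 3 and 3), Vapa being the paralog that also binds proteins of neighbouring membranes.

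Itpr1, the ER calcium release channel, was slightly higher in MFN2-R94Q without passing the threshold. Itpr1 (chromosome 6, 108213096 to 108551109, plus strand) had 10.2, 10.6, 10.6, 10.3 and 10.4 RPKM in MFN2-R94Q:MFN1. It had 11.5, 10.7 and 11.5 RPKM in MFN2-R94Q and 10.5, 10.8 and 10.6 RPKM in nTg. MFN2-R94Q replicates 1 and 3 stood above every other library, and replicate 2 lay within the nTg range. The fold in MFN2-R94Q against nTg was 1.05 (95% interval 0.992 to 1.12, limma adjusted p = 0.21). Against MFN2-R94Q, the MFN2-R94Q:MFN1 group gave a fold of 0.931 (95% interval 0.882 to 0.983, limma adjusted p = 0.079), and those groups did not overlap (exact permutation p = 0.036, the smallest possible). Without MFN2-R94Q replicate 2 that log2 difference was -0.14 with an adjusted p of 0.037 by limma.

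Itpr1 was the main receptor isoform by level. Its share of the summed RPKM of Itpr1, Itpr2 and Itpr3 was 64.95 ± 0.67% in MFN2-R94Q:MFN1, 66.9 ± 1.2% in MFN2-R94Q and 65.6 ± 1.3% in nTg (SD, n = 5, 3 and 3). The Itpr2 share was 18.79 to 20.31% over the MFN2-R94Q:MFN1 libraries. It lay above the 18.20 to 18.66% of MFN2-R94Q and the 17.49 to 18.57% of nTg. Shares were not tested, and the RPKM of 20.1% and 14.1% of all tested genes did not overlap in those comparisons. Itpr2, the isoform common in glia, averaged 3.10, 3.08 and 2.91 RPKM and Itpr3 averaged 2.52, 2.48 and 2.68 RPKM in the same groups, and neither passed the test.

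None of the 3 genes of the VDAC channels of the outer membrane passed the test in a comparison. Vdac1 (chromosome 11, 52360860 to 52389397, plus strand) had 169.7, 172, 168, 170.2 and 166 RPKM in MFN2-R94Q:MFN1, 167, 163 and 168 RPKM in MFN2-R94Q, and 168, 172 and 165 RPKM in nTg. All 3 groups overlapped. Vdac2 (chromosome 14, 21825238 to 21845879, plus strand) had 91.7, 98.7, 96.0, 91.4 and 93.2 RPKM in MFN2-R94Q:MFN1, 91.8, 89.8 and 93.3 RPKM in MFN2-R94Q, and 92.1, 92.4 and 93.1 RPKM in nTg. Vdac3 (chromosome 8, 22577075 to 22593813, minus strand) had 95.5, 98.9, 96.7, 89.1 and 95.8 RPKM in MFN2-R94Q:MFN1, 100.9, 96.0 and 96.8 RPKM in MFN2-R94Q, and 99.5, 97.9 and 93.9 RPKM in nTg. The groups overlapped for these isoforms too, the highest Vdac2 library being MFN2-R94Q:MFN1 replicate 2 and the lowest Vdac3 library replicate 4 of the same group.

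The balance between the VDAC isoforms, which differ in their binding partners in cell death and metabolism, is given as a description. Vdac1 made up 47.2 ± 0.84%, 46.7 ± 0.23% and 47.0 ± 0.37% of their summed RPKM in MFN2-R94Q:MFN1, MFN2-R94Q and nTg. Vdac2 made up 26.3 ± 0.41%, 25.8 ± 0.28% and 25.8 ± 0.51%, and Vdac3 made up 26.5 ± 0.64%, 27.5 ± 0.50% and 27.1 ± 0.49% (SD, n = 5, 3 and 3). The Vdac3 share was 25.41 to 26.96% over the MFN2-R94Q:MFN1 libraries, 27.04 to 28.03% over those of MFN2-R94Q and 26.68 to 27.64% over those of nTg, so that the transgenic groups lay side by side without overlap, and the Vdac1 and Vdac2 shares overlapped between all groups. These shares were not tested, and the RPKM of 20.1% of all tested genes did not overlap between the transgenic groups. The VDAC sum was 359 ± 7.1, 356 ± 5.7 and 358 ± 5.3 RPKM in MFN2-R94Q:MFN1, MFN2-R94Q and nTg. Vdac2 overlaps Comtd1 on the other strand, which stood at 4.46, 4.21 and 4.74 RPKM, and since it is not given whether counting used the strand, their reads may be mixed.

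Mcu, the pore of the uniporter in the inner membrane, was the lowest of the 8 genes. Mcu (chromosome 10, 59446984 to 59616692, minus strand) had 9.14, 9.19, 9.004, 9.18 and 9.32 RPKM in MFN2-R94Q:MFN1. It had 8.87, 9.06 and 9.30 RPKM in MFN2-R94Q and 9.23, 9.05 and 9.24 RPKM in nTg. The 3 groups overlapped, and the highest and lowest libraries differed by 1.05 times. About 780 to 1900 reads per library stood behind these values, against 10300 to 30900 for Pacs2 and 1100 to 2410 for Rmdn3.

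For the 5 genes Vapb, Vdac1, Vdac2, Vdac3 and Mcu, the intervals of the differences were narrow. Their 95% intervals by limma ran no lower than a fold of 0.928 and no higher than 1.07 in MFN2-R94Q against nTg. The limits were 0.921 and 1.08 in MFN2-R94Q:MFN1 against MFN2-R94Q, and 0.928 and 1.07 in MFN2-R94Q:MFN1 against nTg. Adjusted p-values of these genes were 0.43 to 0.99 over the 3 comparisons. Some of their log2 differences changed sign under other settings, without passing the test.

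**Figure D2:**
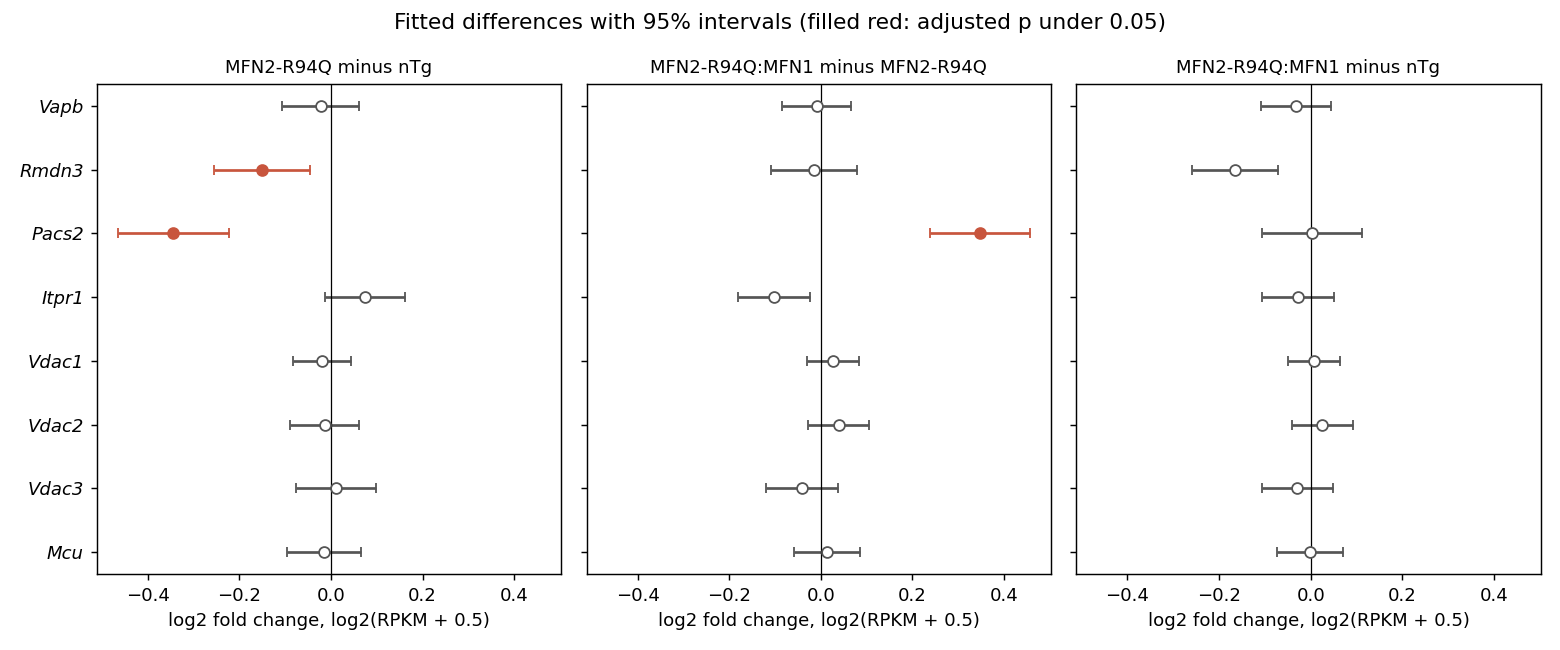
Log2 difference (horizontal axis) of each gene with its 95% interval from limma in the 3 comparisons, with filled red points for those at an adjusted p under 0.05. Pacs2 lies at -0.34 in MFN2-R94Q against nTg and at 0.35 in MFN2-R94Q:MFN1 against MFN2-R94Q, and Rmdn3 lies at -0.15 and -0.16 in both comparisons with nTg.

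Counted together, 2 of the 8 genes fell in MFN2-R94Q relative to nTg and 0 rose, where 10.4% of all tested genes fell, 7.5% rose and 17.9% passed in either direction. In MFN2-R94Q:MFN1 relative to MFN2-R94Q, 1 of the 8 was higher and 0 were lower, where 9.55% of all genes were higher, 3.33% were lower and 12.9% passed. In MFN2-R94Q:MFN1 relative to nTg 0 of the 8 passed by limma and 1 of them, Rmdn3, had an unadjusted p under 0.05, where 2.31% of all genes passed (2.09% higher and 0.223% lower). Groups did not overlap for 2, 2 and 1 of the 8 genes in these comparisons, against 35.7%, 20.1% and 14.1% of all tested genes. In these comparisons 1, 2 and 1 of the 8 passed without MFN2-R94Q replicate 2, where 11.3%, 6.16% and 4.11% of all genes did. These shares are small counts near the background and are no result about the 8 genes as a set. Their median absolute log2 difference was 0.021, 0.033 and 0.026, against 0.098, 0.078 and 0.055 over all tested genes. The spread within groups was smaller too, with log2 SDs of 0.022 to 0.059, except Pacs2 at 0.078. The median SD over all tested genes, which include low ones, was 0.076.

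Among other proteins of the contact sites, 3 of 16 tested genes fell in MFN2-R94Q relative to nTg and 1 rose, and 3 were higher in MFN2-R94Q:MFN1 than in MFN2-R94Q, with 0 lower (3 and 2 at an unadjusted p under 0.05). With quantile normalization 2 rose and 3 fell in the first comparison, and 2 were higher and 1 was lower in the second. The share called was 25.0% and 18.8%, against 17.9% and 12.9% of all tested genes. Of all tested genes, 34.4%, 29.4% and 15.5% had an unadjusted p under 0.05 in MFN2-R94Q against nTg, MFN2-R94Q:MFN1 against MFN2-R94Q and MFN2-R94Q:MFN1 against nTg, and 17.7%, 12.8% and 1.79% passed with quantile normalization. The median log2 difference of the contact genes was 0.005 and 0.004, against -0.002 and 0.012. Bcap31, an ER chaperone that binds a fission protein of the outer mitochondrial membrane, averaged 45.6 ± 0.91, 40.8 ± 2.2 and 47.5 ± 1.5 RPKM in MFN2-R94Q:MFN1, MFN2-R94Q and nTg. Its log2 change was -0.22 in MFN2-R94Q against nTg (limma adjusted p = 0.0050) and 0.16 in MFN2-R94Q:MFN1 against MFN2-R94Q (limma adjusted p = 0.016).

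Rrbp1, the ribosome-binding protein of rough ER, averaged 19.3 ± 0.80 RPKM in MFN2-R94Q:MFN1, 15.4 ± 1.5 RPKM in MFN2-R94Q and 18.5 ± 0.20 RPKM in nTg, with log2 changes of -0.26 (limma adjusted p = 0.013) and 0.32 (limma adjusted p = 0.0042) in the same comparisons. Esyt1, an extended synaptotagmin better known from contacts of ER with the plasma membrane, averaged 34.1 ± 0.78, 31.6 ± 0.85 and 36.0 ± 0.62 RPKM, with changes of -0.19 (limma adjusted p = 0.0046) and 0.11 (limma adjusted p = 0.033). All 3 genes were lowest in MFN2-R94Q.

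The gene that rose in MFN2-R94Q, named after its values were seen, was Hspa9, the mitochondrial chaperone that couples ITPR1 to VDAC1. Hspa9 averaged 78.0 ± 0.95, 82.5 ± 4.8 and 74.4 ± 2.4 RPKM, with a log2 change of 0.15 in MFN2-R94Q against nTg (limma adjusted p = 0.027). Without MFN2-R94Q replicate 2 it was 0.11 (limma adjusted p = 0.080), and without nTg replicate 2 or 3 it was 0.15 (adjusted p = 0.064) or 0.12 (adjusted p = 0.098). The call was also lost with library weights, at 0.07 (adjusted p = 0.10), with the 2 groups fitted alone (adjusted p = 0.10) and with no trend (adjusted p = 0.052). Without MFN2-R94Q replicate 2, 3 contact genes still fell and 0 rose in MFN2-R94Q, but 1 and not 3 was higher in MFN2-R94Q:MFN1 than in MFN2-R94Q, where the shares of all genes were 11.3% and 6.16%. The second call of Esyt1 was lost on leaving out MFN2-R94Q replicate 1 or 2 or MFN2-R94Q:MFN1 replicate 2, 4 or 5, with adjusted p up to 0.090, and with quantile normalization, median centring, the 2 groups alone or no trend, with adjusted p of 0.056 to 0.062. The second call of Bcap31 was lost only without MFN2-R94Q replicate 2 among the 11 omissions (adjusted p = 0.054), and also with the length and GC correction, at 0.09 (adjusted p = 0.085). The call of Rrbp1 in MFN2-R94Q against nTg was lost with the 2 groups alone (adjusted p = 0.059).

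Of 16 tested genes of ER calcium release and refilling, 4 fell in MFN2-R94Q relative to nTg and 0 rose (6 and 1 at an unadjusted p under 0.05). In MFN2-R94Q:MFN1 relative to MFN2-R94Q, 2 were higher and 0 were lower (5 and 2 at an unadjusted p under 0.05). With quantile normalization 4 fell and 1 rose in the first comparison, and 2 were higher and 2 were lower in the second. The share called was 25.0% and 12.5%, against 17.9% and 12.9% of all tested genes, and the median log2 difference was -0.093 and 0.039. Ryr1 and Atp2a1 of this list were under the filter. Calr, the calcium-binding chaperone calreticulin of the ER lumen, had 120.3, 102, 96.2, 110.3 and 107 RPKM in MFN2-R94Q:MFN1, 89.5, 75.7 and 86.5 RPKM in MFN2-R94Q, and 123, 151 and 111 RPKM in nTg. Each MFN2-R94Q library lay below each library of the other groups, and nTg was the most spread. The log2 change of Calr was -0.60 in MFN2-R94Q against nTg (limma adjusted p = 0.0034) and 0.35 in MFN2-R94Q:MFN1 against MFN2-R94Q (limma adjusted p = 0.026).

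Orai1, a store-operated calcium channel of the plasma membrane, averaged 4.02 ± 0.20, 3.40 ± 0.17 and 4.11 ± 0.038 RPKM in MFN2-R94Q:MFN1, MFN2-R94Q and nTg. Its log2 changes were -0.24 (limma adjusted p = 0.013) and 0.21 (limma adjusted p = 0.018) in the same comparisons. Its paralogs Orai2 and Orai3, named after their values were seen, did not pass the test. Orai2, at 14.7, 16.2 and 15.1 RPKM, was highest in MFN2-R94Q, and Orai3, at 4.77, 4.47 and 4.86 RPKM, was lowest there. With quantile normalization Orai2 was lower in MFN2-R94Q:MFN1 than in MFN2-R94Q (log2 -0.15, limma adjusted p = 0.034). Tmco1, an ER channel that lets out calcium when the store is overfilled, and Erp44, a luminal protein that inhibits ITPR1, fell in MFN2-R94Q relative to nTg by 0.22 and 0.17 on the log2 scale (limma adjusted p = 0.035 each). The Tmco1 call was lost on leaving out nTg replicate 1 or 2 or MFN2-R94Q replicate 2, with adjusted p up to 0.13, and with no filter (adjusted p = 0.066) or the 2 groups alone (adjusted p = 0.11). The Erp44 call was lost on leaving out any nTg library or MFN2-R94Q replicate 1 or 2, with adjusted p up to 0.12, and with the 2 groups alone (adjusted p = 0.090) or library weights, at -0.11 (adjusted p = 0.071). The first call of Orai1 was lost with the 2 groups alone (adjusted p = 0.054). The second call of Calr was lost on leaving out MFN2-R94Q replicate 2 (adjusted p = 0.11) or MFN2-R94Q:MFN1 replicate 1, 4 or 5 (adjusted p = 0.051 each), or with no filter (adjusted p = 0.074). Without MFN2-R94Q replicate 2, 2 of the 16 genes fell in MFN2-R94Q and 1 was higher in MFN2-R94Q:MFN1, beside 11.3% and 6.16% of all genes called.

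Mcu itself did not pass the test, and its partner Smdt1 did. Of 5 other genes of the uniporter complex, 1 fell in MFN2-R94Q relative to nTg, with 0 higher (2 and 0 at an unadjusted p under 0.05), and 1 was higher in MFN2-R94Q:MFN1 than in MFN2-R94Q, with 0 lower (1 and 0). In these comparisons 17.9% and 12.9% of all tested genes passed, so 1 of 5 is a count near the background. The median log2 difference was -0.076 and 0.082. Smdt1, which encodes EMRE, the small subunit that MCU needs to conduct calcium, had 94.2, 99.8, 91.7, 91.0 and 97.6 RPKM in MFN2-R94Q:MFN1. It had 84.9, 85.4 and 87.1 RPKM in MFN2-R94Q and 98.6, 99.3 and 101 RPKM in nTg. The MFN2-R94Q libraries lay together below every other library. The log2 change of Smdt1 was -0.22 in MFN2-R94Q against nTg (limma adjusted p = 0.0037) and 0.14 in MFN2-R94Q:MFN1 against MFN2-R94Q (limma adjusted p = 0.018). The second call was lost when the fit was corrected for GC content and transcript length, at 0.06 (adjusted p = 0.11). Both calls of Smdt1 held without MFN2-R94Q replicate 2 (limma adjusted p = 0.0075 and 0.046).

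**Figure D3:**
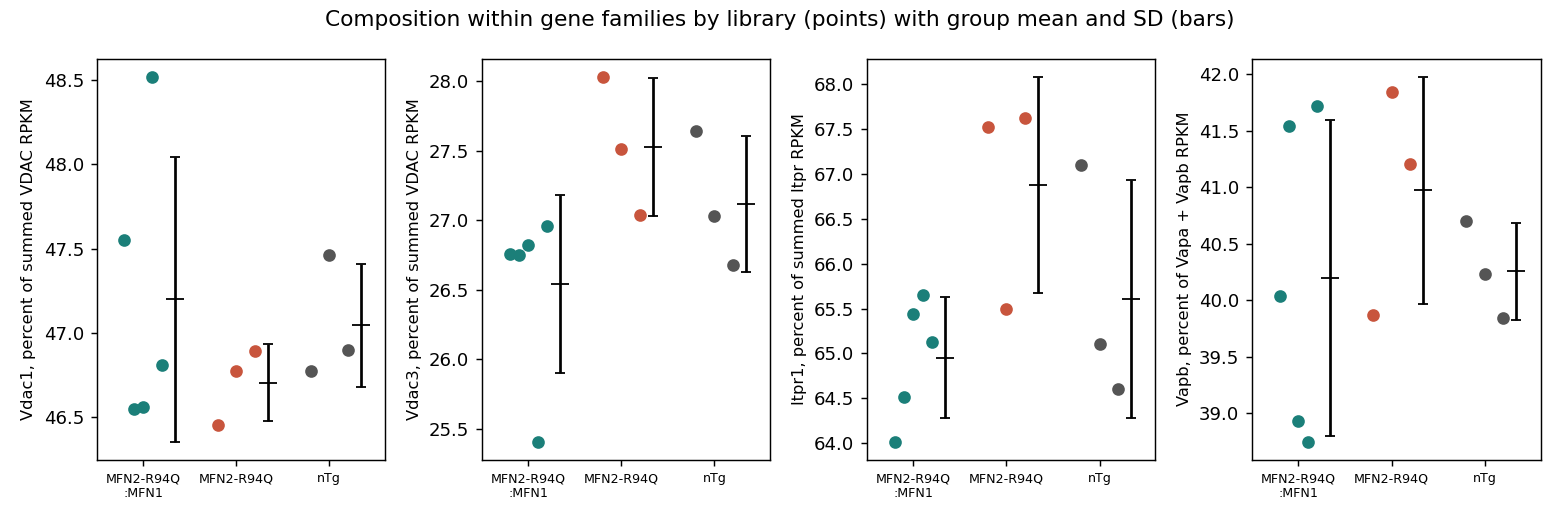
Vdac1 and Vdac3 as percents of summed VDAC RPKM, Itpr1 as a percent of summed IP3 receptor RPKM, and Vapb as a percent of Vapa plus Vapb (vertical axes, not starting at 0), for every library (points) with group means and SDs. The Vdac3 share lies at 25.41 to 26.96% in MFN2-R94Q:MFN1, below the 27.04 to 28.03% of MFN2-R94Q, with nTg at 26.68 to 27.64% across both, and the Vdac1 share averages 46.7 to 47.2%.

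Of 8 genes of mitochondrial calcium exchange and calcium sensing 0 passed by limma in any comparison. At an unadjusted p under 0.05, 2 were higher in MFN2-R94Q than in nTg and 2 were lower in MFN2-R94Q:MFN1 than in MFN2-R94Q. With quantile normalization 2 were higher in MFN2-R94Q than in nTg and 1 was lower in MFN2-R94Q:MFN1 than in MFN2-R94Q. In MFN2-R94Q:MFN1 relative to nTg 0 of the 45 genes of the 4 lists passed by limma, also with quantile normalization, and 4 were lower at an unadjusted p under 0.05. Among all tested genes, 17.9%, 12.9% and 2.31% passed in MFN2-R94Q against nTg, MFN2-R94Q:MFN1 against MFN2-R94Q and MFN2-R94Q:MFN1 against nTg. In the same order, 34.4%, 29.4% and 15.5% had an unadjusted p under 0.05, and 17.7%, 12.8% and 1.79% passed with quantile normalization.

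**Figure D4:**
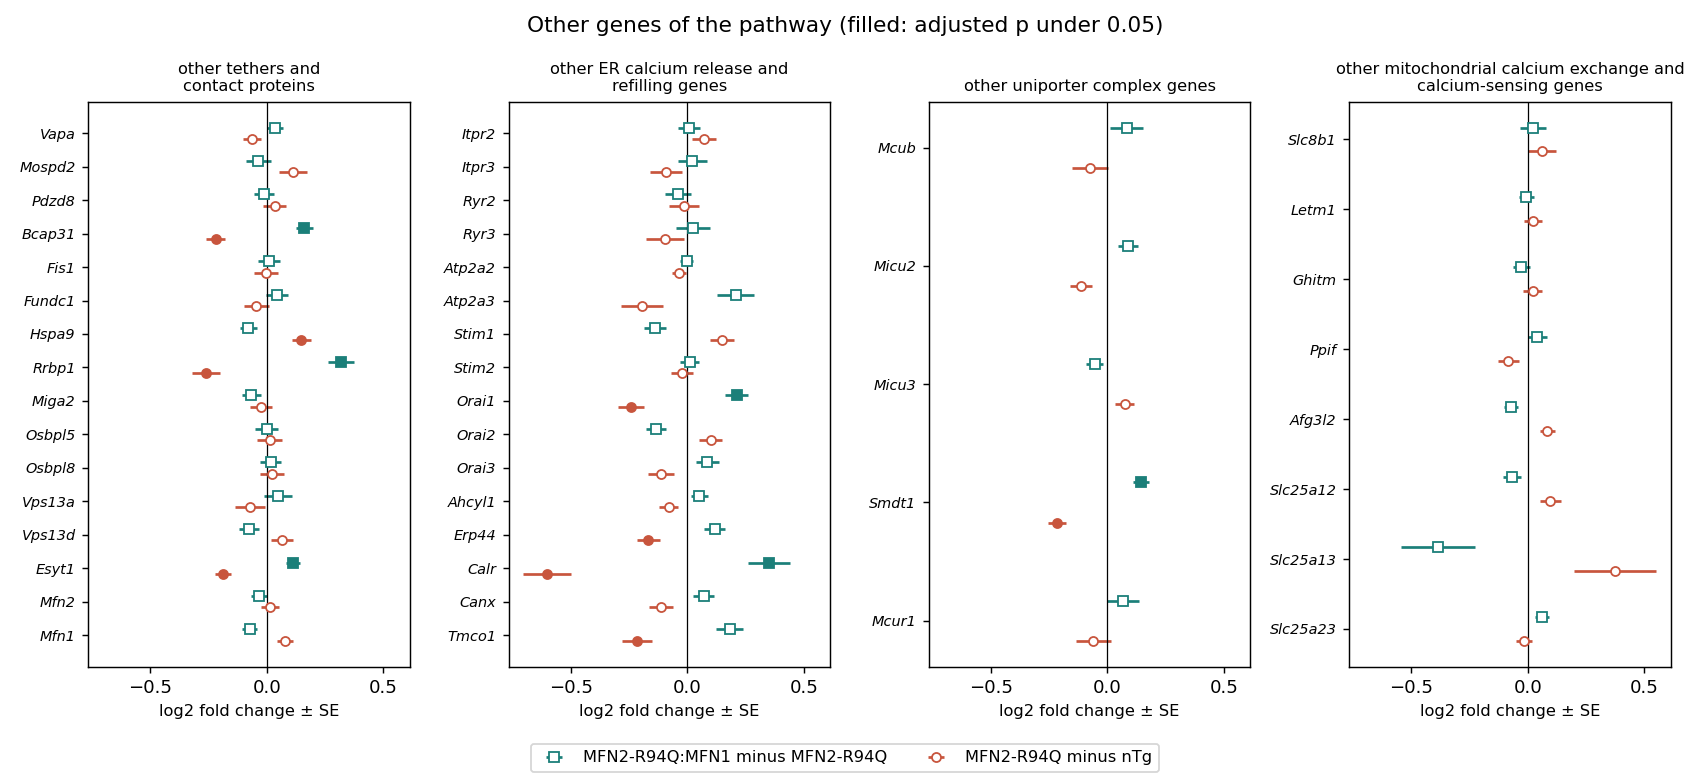
Log2 fold change (horizontal axis) with its SE for every tested gene of the 4 further lists, as squares for MFN2-R94Q:MFN1 minus MFN2-R94Q and circles for MFN2-R94Q minus nTg, filled at an adjusted p under 0.05 by limma. In MFN2-R94Q against nTg 8 filled circles lie below 0 and 1, Hspa9, lies above, and Calr is lowest at -0.60.

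The genes most like Pacs2 in pattern over the 11 libraries, of 8581 searched, were Mcee, Spg20 and Gsn, with root mean square log2 differences from it of 0.033, 0.033 and 0.036, where Pacs2 itself varied by 0.168 around its mean. Gsn, the actin-severing protein gelsolin, averaged 58.9 ± 1.4, 46.5 ± 4.4 and 58.4 ± 0.81 RPKM in MFN2-R94Q:MFN1, MFN2-R94Q and nTg. Mcee, a mitochondrial epimerase of propionate breakdown, averaged 13.6 ± 0.35, 10.8 ± 1.0 and 13.8 ± 0.47 RPKM, and Spg20, which encodes spartin, averaged 26.4 ± 0.43, 21.5 ± 2.0 and 26.1 ± 0.20 RPKM. For Rmdn3, which varied by 0.087, the nearest were Cbln2, Hoxa10 and Adcy8, at 0.036, 0.043 and 0.043.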

How the data were processed

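The authors deposited RPKM values, 1 column for each of the 11 libraries. The build mm10 and the tools Partek 7.17.0918 and TopHat, without its version, are named per the submitters' processing notes, and per the labels' protocols the libraries were stranded TruSeq mRNA libraries. No source used here gives the annotation, the treatment of multi-mapping reads or any use of strand in counting. Depth was recovered from short RNA genes under 160 bases, whose values of up to 5 reads were whole multiples of 1 read, within 0.02, in 94.9% to 98.9% of cases per library. It was 43.3, 72.0, 36.5, 36.6 and 47.9 M reads in MFN2-R94Q:MFN1, 30.7, 41.9 and 52.5 M in MFN2-R94Q, and 54.1, 43.6 and 34.7 M in nTg. No count test was run, because gene lengths used by the authors are not given. Read numbers per gene use the longest GENCODE M21 transcript and are approximate.

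The 14347 genes at 0.5 RPKM or more in 3 or more libraries were tested on log2(RPKM + 0.5) with limma 3.58.1 in R 4.3.3 (eBayes with trend) with the 11 libraries fitted together and genotype as the one factor. Tests were two-sided, with Benjamini-Hochberg adjustment over all tested genes and a threshold of 0.05. Folds are on that scale and understate changes of low genes. Single genes were also tested by exact permutation over libraries. Replicate numbers follow the order of the records and pair nothing. The fit was tested on simulated data.

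The 8 genes, the further lists and the marker lists were chosen with earlier results of these data known. Named are the 8 genes, up to 4 called genes of each list and comparison, family partners, and the 3 genes nearest to each called member in pattern, with a mean of at least 5 RPKM. Some genes of the lists are not reported here and were left out of the list counts. Alternatives covered the pseudocount, filter, scaling, groups in the fit, library weights, the prior on the spread, each library left out, and, added after seeing the data, a loess correction (span 0.5) for GC content and length. That correction covered 96.8% of the tested genes.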

Additional observations from a re-analysis of the deposited data

How the results depend on the processing

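The differences of the 8 genes and of 26 other named genes, and the counts of called genes, were recomputed under 22 alternatives, 11 of them leaving out 1 library. List counts were recomputed with quantile normalization and without MFN2-R94Q replicate 2, and family shares, marker sums and likeness were not recomputed. Pacs2 kept its direction and its call in 22 of 22 in both comparisons with MFN2-R94Q, with log2 changes of -0.40 to -0.24 against nTg and 0.25 to 0.41 for MFN2-R94Q:MFN1 against MFN2-R94Q. The Rmdn3 call in MFN2-R94Q against nTg held in 6 of 22. Itpr1 passed in MFN2-R94Q:MFN1 against MFN2-R94Q in 4 of 22, with quantile normalization, median centring, library weights, or without MFN2-R94Q replicate 2. Over all comparisons, 467 recomputed differences of the 8 genes stayed on their side of the threshold and in their direction, 16 lost a call, 9 gained one and 36 changed sign. For the 26 other genes these numbers were 1604, 73, 13 and 26. The estimation of library weights stopped before its tolerance was reached.

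Of the 8 genes, the number called in MFN2-R94Q against nTg was 1 and not 2 with no filter, quantile normalization, median centring, the 2 groups fitted alone, no trend, or length and GC correction, 3 with library weights, where Itpr1 was higher (0.11, adjusted p = 0.018), and 1 to 2 with a library left out. In MFN2-R94Q:MFN1 against MFN2-R94Q it was 2 and not 1 with quantile normalization, median centring or library weights, and 1 to 2 with a library left out. Between MFN2-R94Q:MFN1 and nTg it was 1 and not 0 with the 2 groups alone or library weights, and 0 to 1 with a library left out. Over all genes, the number called in MFN2-R94Q against nTg was 844 with the 2 groups alone, 3678 with library weights and 1213 to 2857 with a library left out, against 2561. For MFN2-R94Q:MFN1 against MFN2-R94Q it was 1198 with no filter, 3378 with library weights and 882 to 2217 with a library left out, against 1848. In MFN2-R94Q:MFN1 against nTg it was 565 with the 2 groups alone, 590 with library weights and 189 to 589 with a library left out, against 332. The share of calls that were higher in MFN2-R94Q:MFN1 than in MFN2-R94Q was 74.1%, and it was 54.7% with quantile normalization, 61.1% with median centring and 54.6% with the length and GC correction. For MFN2-R94Q:MFN1 against nTg it was 90.4%, and 77.0% with that correction.

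The differences that changed sign were not called before or after the change. In MFN2-R94Q against nTg, quantile normalization gave Vapb 0.0071, Vdac1 0.020 and Vdac2 0.037, library weights gave Vdac2 0.0091, Vdac3 -0.0026 and Mcu 0.011, and the length and GC correction gave Vdac1 0.0063, Vdac2 0.0046 and Vdac3 -0.022. With a library left out, Vdac2 ranged from -0.027 to 0.0010, Vdac3 from -0.012 to 0.029, Mcu from -0.031 to 0.0013, Mfn2 from -0.0069 to 0.036 and Brf1 from -0.0092 to 0.077. In MFN2-R94Q:MFN1 against MFN2-R94Q, quantile normalization gave Vdac1 -0.0051, Itpr2 -0.010, Itpr3 -0.012 and Mta1 -0.0050, median centring gave Mcu -0.0036, Itpr2 -0.0084 and Mta1 -0.00069, library weights gave Mcu -0.011 and Mta1 -0.0014, and the length and GC correction gave Vdac1 -0.021, Vdac2 -0.0096, Mcu -0.019 and Mta1 -0.012. With a library left out, Vapb ranged from -0.022 to 0.015, Rmdn3 from -0.059 to 0.032, Mcu from -0.0024 to 0.030, Itpr2 from -0.0057 to 0.018, Itpr3 from -0.0034 to 0.047 and Brf1 from -0.083 to 0.0036. In MFN2-R94Q:MFN1 against nTg, median centring gave Vdac1 -0.0028, Pacs2 -0.0061 and Mfn1 -0.0050, library weights gave Pacs1 0.0011, and the length and GC correction gave Vdac1 -0.014, Vdac2 -0.0051, Pacs2 -0.0019, Mfn1 -0.025 and Spg20 -0.0032. With a library left out, Vdac1 ranged from -0.0078 to 0.021, Pacs2 from -0.0092 to 0.012, Mcu from -0.010 to 0.0050, Tmco1 from -0.067 to 0.014, Mfn1 from -0.016 to 0.022, Mfn2 from -0.036 to 0.0015, Pacs1 from -0.031 to 0.017, Mcee from -0.030 to 0.013 and Brf1 from -0.015 to 0.0038. The cause of these changes was not tested.

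No paired analysis was possible because the labels give no replicate numbers. The spread between libraries includes counting error, and signals below the filter were not tested.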

Other observations

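The genes around Pacs2 were looked at after its values were seen. Within 150000 bases on each side of Pacs2 on chromosome 12 lay 8 other tested protein-coding genes. Over all tested genes, 17.9% passed in MFN2-R94Q against nTg and 12.9% in MFN2-R94Q:MFN1 against MFN2-R94Q. A count of 1 of 8, as found in each, is near that background. In MFN2-R94Q against nTg 1 of them passed, Tmem121, which averaged 5.11 ± 0.51, 4.75 ± 0.26 and 5.81 ± 0.26 RPKM in MFN2-R94Q:MFN1, MFN2-R94Q and nTg, with a log2 change of -0.27 (limma adjusted p = 0.035). That call was lost without any 1 of the 3 nTg libraries or MFN2-R94Q replicate 1 or 2 (adjusted p up to 0.10), with no filter (adjusted p = 0.072) and with the length and GC correction (adjusted p = 0.090). In MFN2-R94Q:MFN1 against MFN2-R94Q 1 passed, Crip1, which averaged 9.59 ± 1.4, 6.93 ± 1.2 and 8.72 ± 0.50 RPKM, with a change of 0.44 (limma adjusted p = 0.027). Crip1 no longer passed when MFN2-R94Q replicate 2 (0.31, adjusted p = 0.11) or MFN2-R94Q:MFN1 replicate 1, 2 or 5 (adjusted p of 0.054 to 0.062) was left out, with no filter (adjusted p = 0.075) and with the 2 groups alone (adjusted p = 0.051). The nearest tested neighbours on each side were Brf1, which is RNA polymerase III initiation machinery, and Mta1, a chromatin regulator. Brf1 averaged 12.1 ± 0.26, 12.5 ± 0.79 and 12.2 ± 0.16 RPKM and Mta1 averaged 13.3 ± 0.31, 13.2 ± 0.23 and 13.5 ± 0.25 RPKM in the same groups, and neither passed in a comparison. Pacs1, the paralog of Pacs2 that sorts proteins in the trans-Golgi network, averaged 10.2, 11.02 and 10.3 RPKM and did not pass (limma adjusted p = 0.17 in MFN2-R94Q against nTg and 0.13 in MFN2-R94Q:MFN1 against MFN2-R94Q).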
